A study of Sus scrofa with 12 samples.

Results

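Interferon-stimulated genes are the genes that cells switch on when interferon binds its receptors. They were followed here in the uterus of newborn gilts. A list of 59 such genes, with the receptors, factors and sensors around them, was matched by symbol or by the table's description to the 20390 entries of the deposited gene table, and 49 of the 59 had an entry. PSMB8, TAP1 and TAP2 each had 2, which gave 52 entries, and all 52 exceeded the table's lowest value of 1 in at least 4 of the 12 libraries, as did 16862 entries in all. IFNAR1, IFNAR2, IFNGR2, IRF8, ISG15, HERC6, IFITM2, IFI6, XAF1 and EPSTI1 were not analysed here. The matches rested on the symbol for 41 entries, on the description for 9 and on an older symbol for 2. The 9 matched by description were IRF9, HERC5, CMPK2, MX2, DTX3L, IFI35, IFI44L, TAPBP and TRIM25, and their identity is less certain. A further 14 entries are described as like a member that has its own entry, and these are treated apart at the end.

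The samples were whole uteri, trimmed of connective tissue, from crossbred gilts of Landrace, Yorkshire, Duroc and Hampshire stock, with 4 animals in each of 3 groups. Gilts of PND0 (postnatal day 0) were killed within 1 h of birth and had not nursed. Those of PND2N had nursed freely for 48 h and those of PND2R had been fed a commercial milk replacer for 48 h, and both were sampled at 50 h of age. Age and feeding start together, so PND2N and PND2R differ from PND0 in both, and only the contrast of PND2N with PND2R separates the feeding. No litter is named in the labels, so littermates within or across groups could not be identified.

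Interferons are secreted signalling proteins. Type I interferons act through IFNAR1 and IFNAR2 and interferon gamma through IFNGR1 and IFNGR2. The receptors activate JAK kinases, which phosphorylate STAT factors. STAT2 and IRF9 belong to the complex that binds the interferon-stimulated response element in the promoters of genes such as MX1, OAS1 and IFIT1. Many of these genes encode proteins that sense viral RNA, block its translation or tag proteins with the small modifier ISG15, and others cut and load peptides for antigen presentation. In the pig uterus the response is best known from early pregnancy, when the conceptus secretes interferons towards the endometrium.

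Values are the authors' normalized linear values per gene, for which no gene length correction is stated, so levels are compared between animals and not between genes. Changes are differences of log2(value + 1), and folds are taken from them, which understates the change of low genes. Adjusted p is from limma over all 16862 entries tested, and a gene is said to have risen or fallen where it is under 0.05. Library totals lay between 26534074 and 29544130. The libraries are numbered 1 to 4 within a group, and the number is only a name. Some libraries stood apart within their groups: the summed level of 7 epithelial markers was 29249 in PND0 3 and 22410 in PND0 4 against 100995 in PND0 1 and 105740 in PND0 2, and the summed level of 7 smooth muscle markers was 342685 in PND2N 1, 267945 in PND2R 2 and 270045 in PND2R 3 against 105289 to 213501 in the other day 2 libraries. All 9 markers of uterus, among them HOXA10, ESR1 and WNT7A, were measured, with summed levels between 32007 and 52542.

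From birth to day 2 the changes of the list went mostly one way. In the mean of both day 2 groups against PND0, 10 of 52 entries rose and 0 fell, where 9.57% of all genes tested rose and 8.49% fell. The risers were IFI30, UBE2L6, BST2, HERC5, GBP2, IFI35, IFI44, DTX3L, OASL and DHX58, by between 1.78-fold (UBE2L6) and 3.79-fold (BST2). Among them HERC5, IFI35 and DTX3L were matched by description only. A positive change was seen in 39 of 52 entries (75.0%, against 47.2% of all genes), and the median change was 0.44 (log2) against -0.05 over all genes. This median depended on the birth libraries. Without PND0 3 and PND0 4 together it was 0.16, with 0.18 in PND2R and 0.06 in PND2N. Without PND2N 1, PND2R 2 and PND2R 3 together it was 0.51. Both sets were chosen after the values were seen, and the median over all genes in these fits is not given. Unadjusted p was under 0.05 for 24 of 52 entries (37.8% of all genes), 21 of them with a positive change and 3 with a negative one. Of all 16862 genes tested, 2996 had such a p with a positive change and 3383 with a negative one. In 6 entries all day 2 animals exceeded all PND0 animals (background 6.67%) and in 1, a TAP1 entry, all were lower (background 6.62%).

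The feeding groups set against birth gave the following counts, which share the same 4 PND0 libraries. In PND2R, 10 of 52 entries rose and 0 fell (background 7.7% higher and 7.31% lower), and the median change was 0.50 against -0.06 over all genes. In PND2N, 1 entry rose, IFI30, and 0 fell (background 1.91% higher and 1.41% lower), with a median of 0.38 against -0.04 over all genes. Changes were positive for 39 of 52 entries in PND2R (47% of all genes) and for 40 of 52 in PND2N (47.5%), and unadjusted p was under 0.05 for 23 (37%) and 17 (23.9%). All animals were above all birth animals in 14 entries in PND2R (12.7%) and 6 in PND2N (8.14%), and below them in 1 entry in each (15.6% and 7.88%). The risers in PND2R were the same 10 as in the day 2 mean. Of these, all 10 had a positive change in PND2N as well, between 0.67 (DHX58) and 1.62 (BST2), and the difference between the feeding groups is tested below. The counts depended on single libraries. For the fits with libraries left out, here and below, the share of all genes passing is not given. Whether the members lost more calls than other genes is therefore not shown. The 10 risers of PND2R became 6 without PND0 3, 2 without PND0 4, 1 without PND2R 2 and 1 without PND2R 3. The 10 of the day 2 mean became 6 without PND0 3 and 4 without PND0 4. Without PND0 3 and PND0 4 together, 2 rose in PND2R and 2 in the day 2 mean. Without PND2N 1, PND2R 2 and PND2R 3 together, 0 passed in PND2R, and 11 rose in the day 2 mean, of which 4 (IFI30, HERC5, BST2 and IFI44) were among the 10 and 7 were not (DDX58, EIF2AK2, IFI44L, IFIT3, RSAD2, SAMD9 and TLR3).

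**Figure D1:**
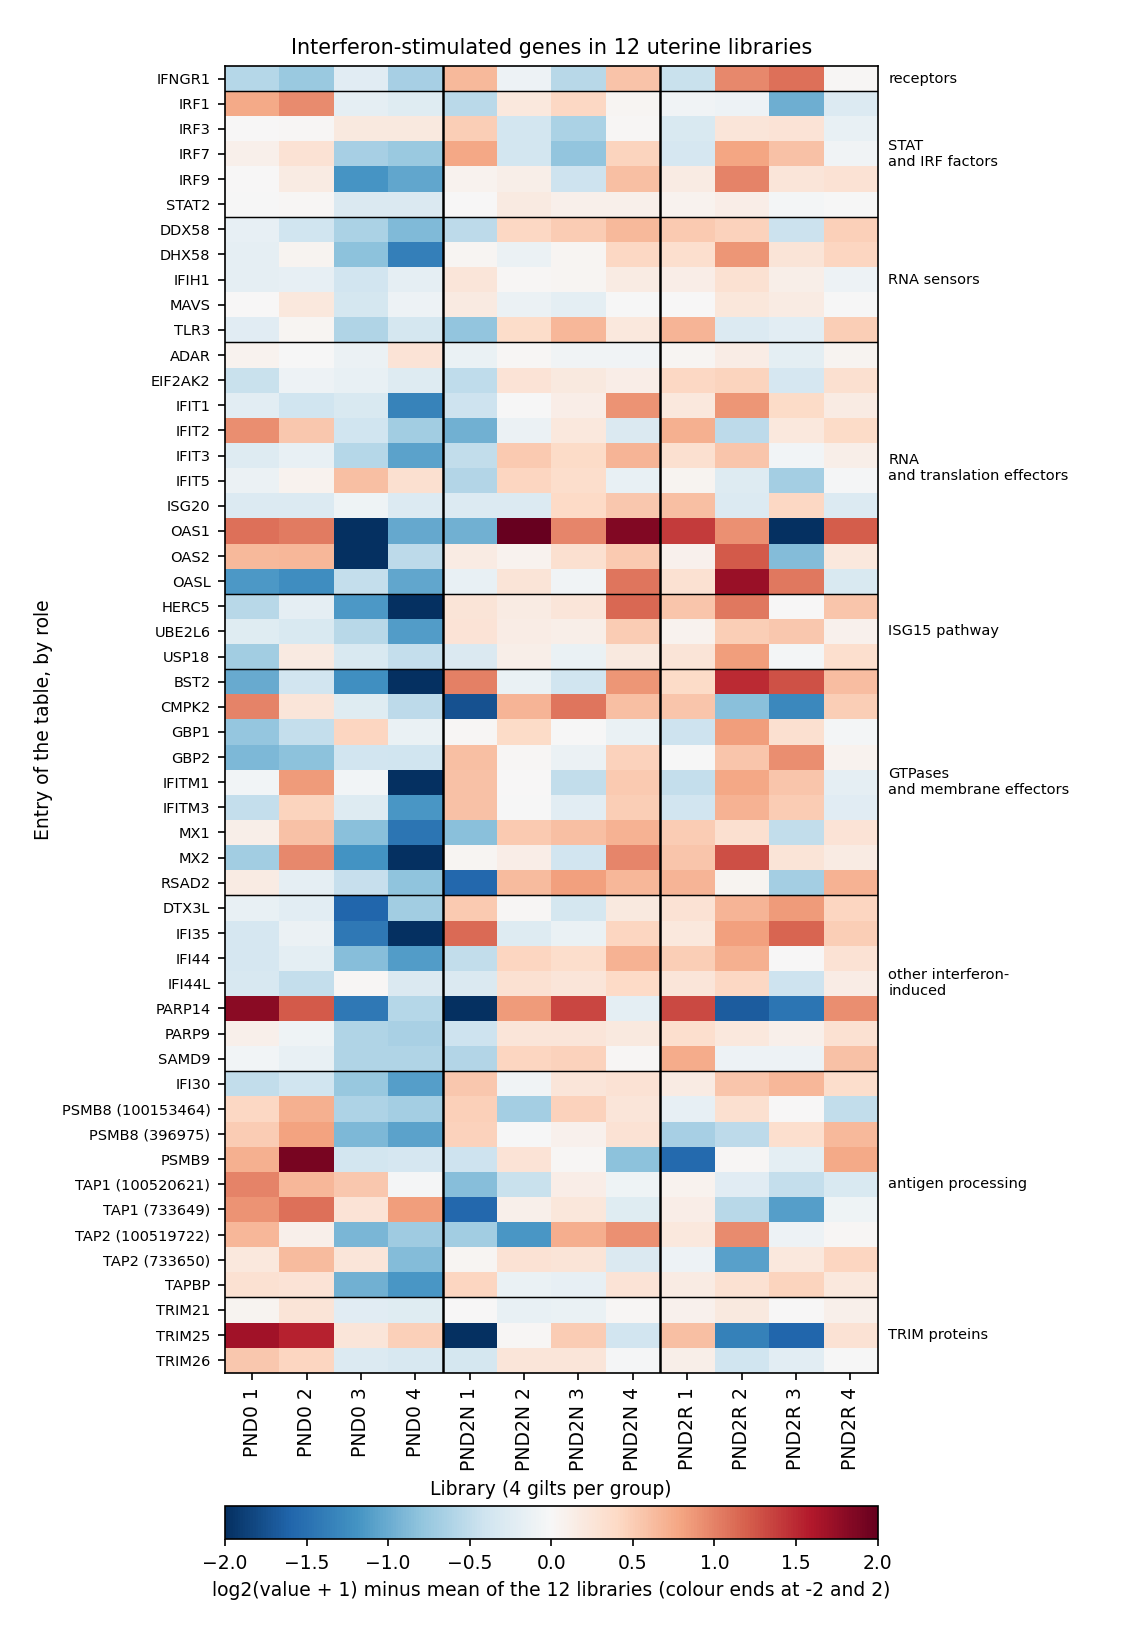
Each row is 1 of the 52 entries, grouped by role, and each column 1 of the 12 libraries; the colour gives log2(value + 1) minus the mean of the 12 libraries, with the scale ending at -2 and 2. PND0 3 and PND0 4 are blue in most rows, and TRIM25 is reddest in PND0 1 and PND0 2.

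The only receptor analysed was IFNGR1, the ligand-binding chain of the interferon gamma receptor (chr1:28744382-28765433, Sscrofa10.2, the build of all positions here). Its levels were 454, 400, 572 and 423 at birth, 1051, 625, 456 and 1000 in PND2N, and 494, 1314, 1444 and 683 in PND2R. Most day 2 animals were above the birth animals, but PND2N 3 and PND2R 1 lay within their range. The change of the day 2 mean was 0.83 ± 0.32 (log2, SE; adjusted p = 0.0827), which did not pass.

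Among the factors, none of 5 entries passed in any comparison. Of all genes tested, 9.57% rose and 8.49% fell in the day 2 mean, so few calls would be looked for among 5. IRF9, the DNA-binding part of the STAT complex, was at 3023, 3372, 1333 and 1471 at birth, at 3179, 3262, 2263 and 4556 in PND2N and at 3361, 5990, 3573 and 3668 in PND2R. The 2 low birth animals were PND0 3 and PND0 4. The change of the day 2 mean was 0.77 ± 0.28 (adjusted p = 0.0764). STAT2, its transactivating partner, was at 3915, 3989, 3214 and 3199 at birth, at 3963, 4434, 4217 and 4219 in PND2N and at 4125, 4283, 3827 and 3900 in PND2R, a change of 0.21 ± 0.10 (adjusted p = 0.154). STAT2 thus varied little, and its groups overlapped. IRF1, an early factor downstream of interferon gamma, was at 147, 166, 75.9 and 72.8 at birth, at 58.9, 99.7, 114 and 88.9 in PND2N and at 82.3, 80.0, 43.1 and 71.4 in PND2R, with a negative change of -0.48 ± 0.32 (adjusted p = 0.281). The other 2 entries, IRF3 and IRF7, factors activated behind the nucleic acid sensors, had changes of -0.16 and 0.39.

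All 5 RNA sensor entries had a positive day 2 change, and DHX58 rose (47.2% and 9.57% of all genes tested in the day 2 mean). DHX58 (chr12:21821299-21830151) encodes LGP2, a regulator of the RIG-I-like receptors. It was at 766, 901, 487 and 335 at birth, at 890, 799, 887 and 1152 in PND2N and at 1095, 1592, 1033 and 1165 in PND2R. All PND2R animals exceeded all birth animals, while PND2N overlapped them. DHX58 rose by 1.05 ± 0.29 in PND2R (2.08-fold, adjusted p = 0.0323) and by 0.86 ± 0.25 in the day 2 mean (adjusted p = 0.0353). Without PND0 3 and PND0 4 its day 2 change was 0.34 (adjusted p = 0.28).

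DDX58, which encodes the RNA sensor RIG-I, was at 679, 580, 494 and 415 at birth, at 532, 1016, 1090 and 1196 in PND2N and at 1103, 1058, 567 and 1061 in PND2R. PND2N 1 and PND2R 3 stayed within the birth range and the other 6 day 2 animals lay above it. Its day 2 change of 0.78 ± 0.26 had an adjusted p of 0.0547. IFIH1, the sensor MDA5, was at 653, 660, 566 and 656 at birth, at 877, 752, 762 and 829 in PND2N and at 812, 919, 804 and 691 in PND2R. All day 2 animals exceeded all birth animals, by a small amount: the change was 0.34 ± 0.13 (1.27-fold, adjusted p = 0.0829). TLR3, an endosomal receptor of double-stranded RNA, and MAVS, the adaptor of the RIG-I-like receptors, had changes of 0.42 and 0.09.

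Of 10 effectors that act on RNA or translation, 1 rose in the day 2 mean (9.57% of all genes tested). This was OASL, an oligoadenylate synthetase-like protein (chr14:44800595-44817975). OASL was low everywhere, at 9.20, 8.57, 15.2 and 9.98 at birth, 19.5, 26.1, 20.6 and 46.2 in PND2N and 27.0, 73.9, 46.2 and 17.4 in PND2R. No day 2 animal fell into the birth range. OASL rose by 1.68 ± 0.46 in PND2R (3.20-fold, adjusted p = 0.0338) and by 1.47 ± 0.40 in the day 2 mean (2.77-fold, adjusted p = 0.0292). Without PND2N 1, PND2R 2 and PND2R 3 its PND2R change was 0.98 (adjusted p = 0.239), a value moved by over 1.5 times.

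The IFIT genes encode proteins that bind foreign RNA and the translation machinery, and their entries lie side by side on chromosome 14. IFIT1 (chr14:110491470-110520954) was at 633, 554, 595 and 288 at birth, at 551, 730, 801 and 1370 in PND2N and at 849, 1346, 952 and 821 in PND2R. PND2R did not overlap the birth animals and PND2N did. The day 2 change was 0.85 ± 0.28 (adjusted p = 0.0518). IFIT3 was at 333, 360, 270 and 190 at birth, at 282, 578, 523 and 637 in PND2N and at 501, 590, 386 and 434 in PND2R, a change of 0.77 ± 0.26 (adjusted p = 0.056). The span of the IFIT3 entry (chr14:110494637-110496163) lies inside that of IFIT1 on the same strand, and how shared reads were counted is not given in the sources used here, so these 2 are uncertain.

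IFIT2 behaved otherwise, with levels of 1455, 1118, 579 and 474 at birth, 395, 706, 883 and 628 in PND2N and 1259, 534, 891 and 997 in PND2R. Its groups overlapped and its day 2 change was -0.14 ± 0.34 (adjusted p = 0.783). The classical effectors OAS1 and OAS2, which make the messenger that activates RNase L, spread widely within groups. OAS1 ranged from 4.19 to 214 at birth, from 50.7 to 401 in PND2N and from 4.40 to 263 in PND2R, and OAS2 from 862 to 8092, from 5370 to 7312 and from 2792 to 11867 in the same order. Their day 2 changes were 1.18 ± 1.21 and 0.66 ± 0.54, within that spread. EIF2AK2, the kinase PKR that halts translation, changed by 0.36, the RNA editor ADAR by -0.08, IFIT5 by -0.33 and the exonuclease ISG20 by 0.33, none past the threshold. ISG20 was listed at the lowest value of 1 in 7 of 12 libraries, on a gene model of 185 bases.

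ISG15 is a ubiquitin-like protein that is conjugated to newly made proteins. In the day 2 mean 2 of the 3 analysed entries of its pathway rose (9.57% of all genes tested). UBE2L6 (chr2:13191869-13237920), the E2 enzyme that carries ISG15, was at 1443, 1388, 1172 and 790 at birth, at 2065, 1902, 1858 and 2445 in PND2N and at 1793, 2411, 2490 and 1815 in PND2R. Every day 2 animal exceeded every birth animal. UBE2L6 rose by 0.83 ± 0.18 in the day 2 mean (1.78-fold, adjusted p = 0.013) and by 0.85 ± 0.21 in PND2R (adjusted p = 0.0236), and the change in PND2N was 0.82 ± 0.21 (adjusted p = 0.052). Without PND0 3 and PND0 4 its day 2 change was 0.55 (adjusted p = 0.0706).

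HERC5 (chr8:138093826-138108967), the ligase that attaches ISG15, was at 209, 270, 137 and 72.1 at birth, at 365, 343, 361 and 685 in PND2N and at 450, 640, 308 and 452 in PND2R. Again no day 2 animal was as low as any birth animal. HERC5 rose by 1.49 ± 0.35 in the day 2 mean (2.81-fold, adjusted p = 0.0174) and by 1.53 ± 0.40 in PND2R (adjusted p = 0.0285). Its PND2N change of 1.44 ± 0.40 had an adjusted p of 0.0684. With PND0 3 and PND0 4 left out, the day 2 change was 0.87 (adjusted p = 0.126). USP18, the protease that removes ISG15, was at 360, 657, 472 and 419 at birth, at 478, 630, 531 and 665 in PND2N and at 695, 1043, 569 and 735 in PND2R. Its groups overlapped, and its change of 0.48 ± 0.21 did not pass (adjusted p = 0.113).

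Of 9 GTPases and membrane effectors, BST2 and GBP2 rose in the day 2 mean (9.57% of all genes tested). BST2 (chr13:108784229-108803026), the membrane protein tetherin that holds budding viruses at the cell surface, had the largest change among the risers. It was at 150, 233, 129 and 53.0 at birth, at 610, 277, 230 and 561 in PND2N and at 399, 855, 736 and 469 in PND2R. PND2R lay wholly above birth, and 1 PND2N animal was just below the highest birth animal. BST2 rose by 2.22 ± 0.47 in PND2R (4.67-fold, adjusted p = 0.0155) and by 1.92 ± 0.41 in the day 2 mean (3.79-fold, adjusted p = 0.0125). PND2N 1, PND2R 2 and PND2R 3, which stood apart in smooth muscle markers, held the highest values of their groups. Without these 3 the day 2 change was 1.59 (adjusted p = 0.0479), and without PND0 3 and PND0 4 it was 1.34 (adjusted p = 0.0851).

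GBP2 (chr4:134816037-134837546), a guanylate-binding GTPase induced by interferon gamma, was at 329, 346, 472 and 465 at birth, at 929, 622, 565 and 840 in PND2N and at 609, 900, 1173 and 643 in PND2R. All day 2 animals exceeded all birth animals, and PND0 3 and PND0 4 were here the higher birth animals. GBP2 rose by 0.94 ± 0.22 in the day 2 mean (1.91-fold, adjusted p = 0.0183) and by 1.01 ± 0.26 in PND2R (adjusted p = 0.0261). Without PND0 3 and PND0 4 its day 2 change was 1.17 (adjusted p = 0.0368), and without PND2N 1, PND2R 2 and PND2R 3 it was 0.70 (adjusted p = 0.0565). Its neighbour GBP1 had a change of 0.36 with an adjusted p of 0.317.

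The dynamin-like GTPases gave no call (9.57% of all genes tested rose and 8.49% fell in the day 2 mean). MX2 was low, at 6.90, 23.8, 4.56 and 1.96 at birth, 12.1, 13.0, 8.83 and 24.3 in PND2N and 17.7, 30.1, 14.3 and 13.4 in PND2R. PND0 2 reached the day 2 range, and the change of 1.14 ± 0.50 did not pass (adjusted p = 0.12). MX1 ranged from 629 to 2597 at birth, from 969 to 2817 in PND2N and from 1240 to 2457 in PND2R, a change of 0.60 ± 0.39 within that spread. RSAD2, the antiviral enzyme viperin, and CMPK2, the kinase encoded beside it, had changes of 0.49 and -0.18. IFITM1 and IFITM3, which hinder virus entry at membranes, had changes of 0.48 and 0.54. Both have further entries described as like them, and whether these shared reads is not known.

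Of 7 other interferon-induced entries, 3 rose in the day 2 mean (9.57% of all genes tested). IFI35 (chr12:20975584-20986520) was at 1193, 1394, 558 and 376 at birth, at 3294, 1258, 1374 and 2025 in PND2N and at 1751, 2667, 3391 and 2116 in PND2R. PND2N overlapped birth and PND2R did not. IFI35 rose by 1.64 ± 0.43 in PND2R (3.13-fold, adjusted p = 0.0275) and by 1.45 ± 0.37 in the day 2 mean (adjusted p = 0.0231). The day 2 change was 0.71 without PND0 3 and PND0 4 (adjusted p = 0.222).

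IFI44 (chr6:124045992-124062625) was at 1306, 1439, 911 and 753 at birth, at 1168, 2218, 2099 and 2666 in PND2N and at 2304, 2676, 1646 and 1998 in PND2R. PND2N 1 was the only day 2 animal within the birth range. IFI44 rose by 0.99 ± 0.28 in PND2R (1.99-fold, adjusted p = 0.0365) and by 0.93 ± 0.24 in the day 2 mean (adjusted p = 0.0249), which without PND0 3 and PND0 4 was 0.57 (adjusted p = 0.22). Its neighbour IFI44L had a change of 0.40 ± 0.18 that did not pass (adjusted p = 0.125).

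DTX3L (chr13:143838807-143847135), a ubiquitin ligase that works as a pair with PARP9, was at 564, 539, 206 and 384 at birth, at 899, 634, 488 and 714 in PND2N and at 764, 1006, 1123 and 843 in PND2R. PND2N 3 lay within the birth range and the other 7 day 2 animals above it. DTX3L rose by 1.23 ± 0.31 in PND2R (2.34-fold, adjusted p = 0.026) and by 0.99 ± 0.27 in the day 2 mean (adjusted p = 0.0288), which without PND0 3 and PND0 4 was 0.51 (adjusted p = 0.185). In the table its entry and that of PARP9 run in opposite directions with 72 bases between them. PARP9 ranged from 837 to 1400 at birth, from 987 to 1555 in PND2N and from 1411 to 1660 in PND2R, and its change of 0.46 ± 0.18 did not pass (adjusted p = 0.0879). SAMD9 had a change of 0.54 and the PARP14 entry, at 1 to 29.9, one of -0.39. A PARP14-like entry with higher values went the other way and is given at the end. The sum of both was 131 to 466 at birth, 333 to 806 in PND2N and 419 to 927 in PND2R, with overlap.

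The antigen processing entries went both ways. IFI30 (chr2:73229223-73233175), the thiol reductase GILT of endosomes that unfolds proteins for presentation on MHC class II, rose in each comparison with birth. It was at 1215, 1297, 1010 and 795 at birth, at 2487, 1622, 2015 and 2086 in PND2N and at 1909, 2503, 2693 and 2178 in PND2R. No animal of either day 2 group overlapped the birth animals. The group means were 1079 ± 225 (SD, n = 4) at birth, 2052 ± 354 in PND2N and 2321 ± 347 in PND2R. IFI30 rose by 0.94 ± 0.19 in PND2N (1.91-fold, adjusted p = 0.0296), by 1.12 ± 0.19 in PND2R (2.17-fold, adjusted p = 0.00839) and by 1.03 ± 0.17 in the day 2 mean (2.04-fold, adjusted p = 0.00496). The rise in the day 2 mean held in all 12 fits that left out 1 library, with adjusted p up to 0.0208, and without PND0 3 and PND0 4 (0.78, adjusted p = 0.0328). The PND2N call was lost without any 1 of PND0 3, PND0 4, PND2N 1, PND2N 4 and PND2R 4, with adjusted p up to 0.0995.

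TAP1 forms, with TAP2, the transporter that brings peptides to MHC class I. Its 2 entries lie in a stretch of chromosome 7 where TAP1, TAP2, PSMB8 and PSMB9 are all listed in 2 copies, so reads could be split between copies and single entries are uncertain. The entry at chr7:29373668-29382973 was at 102, 80.8, 74.4 and 50.1 at birth, at 27.8, 37.2, 55.9 and 47.7 in PND2N and at 53.2, 43.4, 36.3 and 41.0 in PND2R. The entry at chr7:29329533-29338153 was at 37.9, 44.1, 24.3 and 36.6, at 6.05, 21.4, 23.5 and 16.7 and at 22.2, 13.3, 8.80 and 18.8 in the same order. At the second entry all day 2 animals were below all birth animals. The day 2 changes were -0.82 ± 0.28 (adjusted p = 0.0636) and -1.16 ± 0.39 (adjusted p = 0.0575), and neither passed. The sum of both TAP1 entries does not depend on how reads were divided between them. It could still depend on whether shared reads were dropped or counted at both, which is not given. The sum was 86.7 to 140 at birth, 33.9 to 79.4 in PND2N and 45.1 to 75.3 in PND2R. Birth and day 2 did not overlap, where 6.62% of all genes tested were wholly lower on day 2. This sum was chosen after the values were seen and was not tested.

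The same sum for TAP2 was 98.9 to 238 at birth, 140 to 247 in PND2N and 181 to 210 in PND2R, and that for PSMB8, an interferon-induced subunit of the immunoproteasome, was 20.6 to 62.4, 26.1 to 52.0 and 29.9 to 40.7, with overlap throughout. PSMB9, another such subunit, had a change of -0.72 on levels of 1.11 to 22.0. With its second copy the sum was 8.84 to 44.1 at birth, 11.2 to 18.8 in PND2N and 11.1 to 24.2 in PND2R, with overlap. TAPBP, or tapasin, which bridges the transporter and MHC class I, was at 8041, 7827, 3318 and 2885 at birth and between 5797 and 8870 on day 2, a change of 0.58 ± 0.27 that did not pass (adjusted p = 0.137). Its low values were again PND0 3 and PND0 4.

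The 3 TRIM ubiquitin ligases gave no call (9.57% of all genes tested rose and 8.49% fell in the day 2 mean). TRIM25, which ubiquitinates RIG-I, was at 1588, 1443, 586 and 688 at birth, at 121, 500, 701 and 377 in PND2N and at 748, 192, 165 and 607 in PND2R. PND2N 1, PND2R 2 and PND2R 3, the libraries high in smooth muscle markers, held the 3 lowest values. The day 2 change was -1.48 ± 0.54 (adjusted p = 0.0735). TRIM21, a cytosolic antibody receptor, was at 1011, 1159, 832 and 815 at birth, at 978, 873, 887 and 990 in PND2N and at 1025, 1105, 976 and 1039 in PND2R, a change of 0.06 ± 0.13. TRIM26 was at 1656, 1532, 943 and 914 at birth, at 886, 1345, 1338 and 1122 in PND2N and at 1233, 865, 982 and 1134 in PND2R, a change of -0.15 ± 0.20. All day 2 values of TRIM21 lay within its birth range, as did all but 2 of TRIM26, PND2N 1 and PND2R 2.

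**Figure D2:**
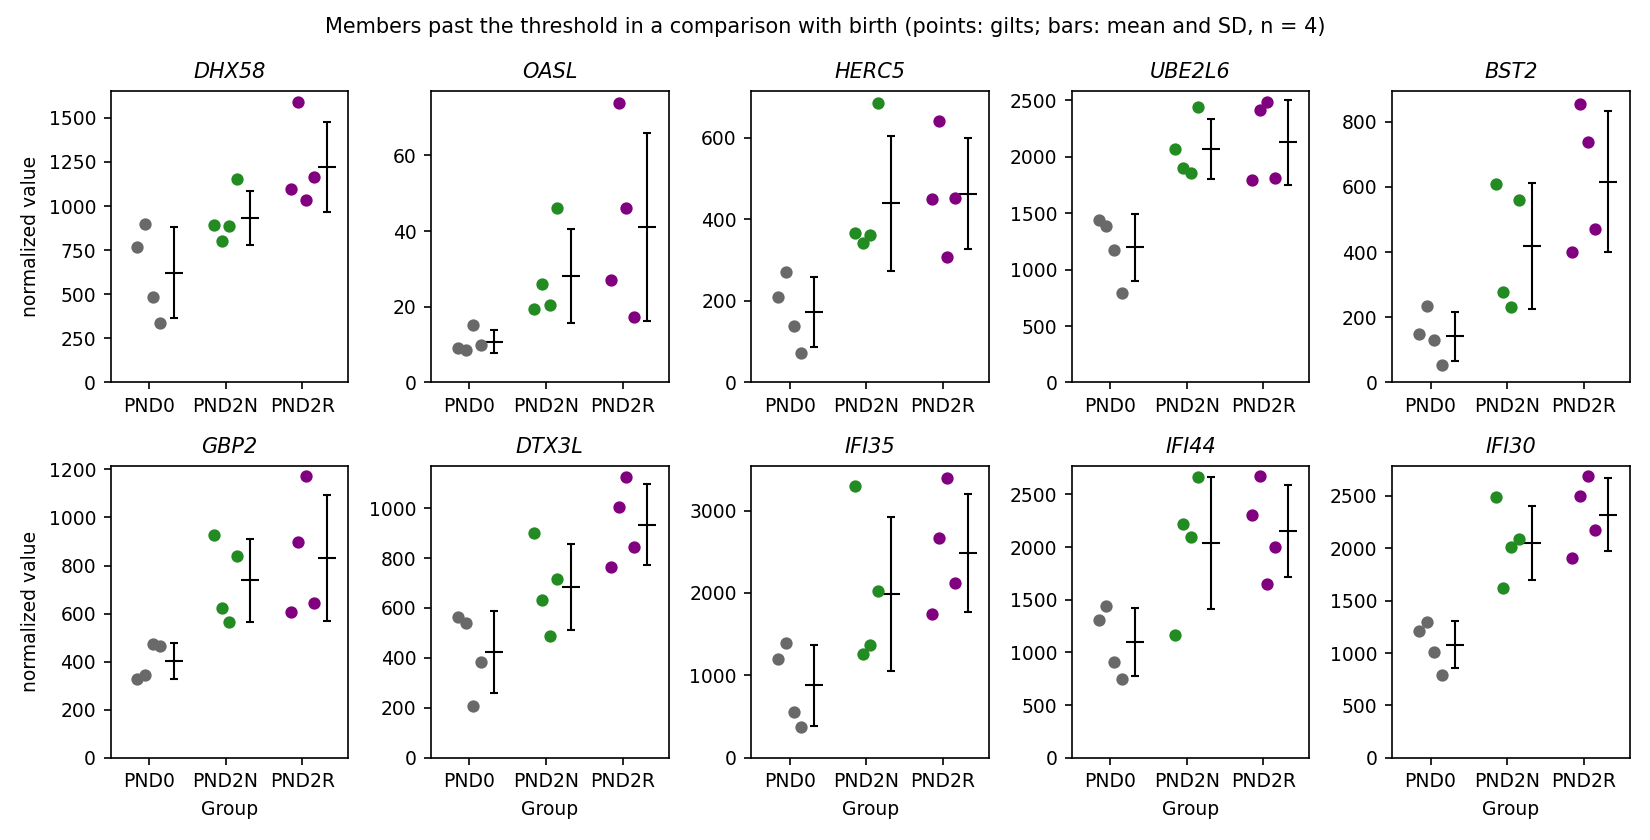
Each panel shows 1 of the 10 risers, with the normalized value on a linear axis from 0, a point for each gilt and the mean with SD (n = 4) as a bar beside the points. For IFI30, UBE2L6, HERC5, GBP2 and OASL every day 2 point lies above every PND0 point.

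Nursing and milk replacer were then set against each other. In PND2N versus PND2R, 0 of 52 entries passed by limma and 0 had an unadjusted p under 0.05, where 0.0119% of all genes passed and 2.68% had an unadjusted p under 0.05. Changes lay between -0.61 and 1.14, and 20 of 52 were positive (54.5% of all genes were), with a median of -0.07 against 0.03 over all genes. No entry had groups that did not overlap, where 2.55% of all genes did. The 5 entries with the lowest unadjusted p in this contrast were led by USP18 (-0.38 ± 0.24, unadjusted p = 0.143) and DTX3L (-0.47 ± 0.31, unadjusted p = 0.16). For IFI30 the difference was -0.18 ± 0.19, for UBE2L6 -0.03 ± 0.21, for HERC5 -0.09 ± 0.40 and for BST2 -0.61 ± 0.47. With 4 animals a group the SE of these differences was 0.19 to 0.47 for the 10 risers, so that small differences between the feeding groups were not detectable.

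**Figure D3:**
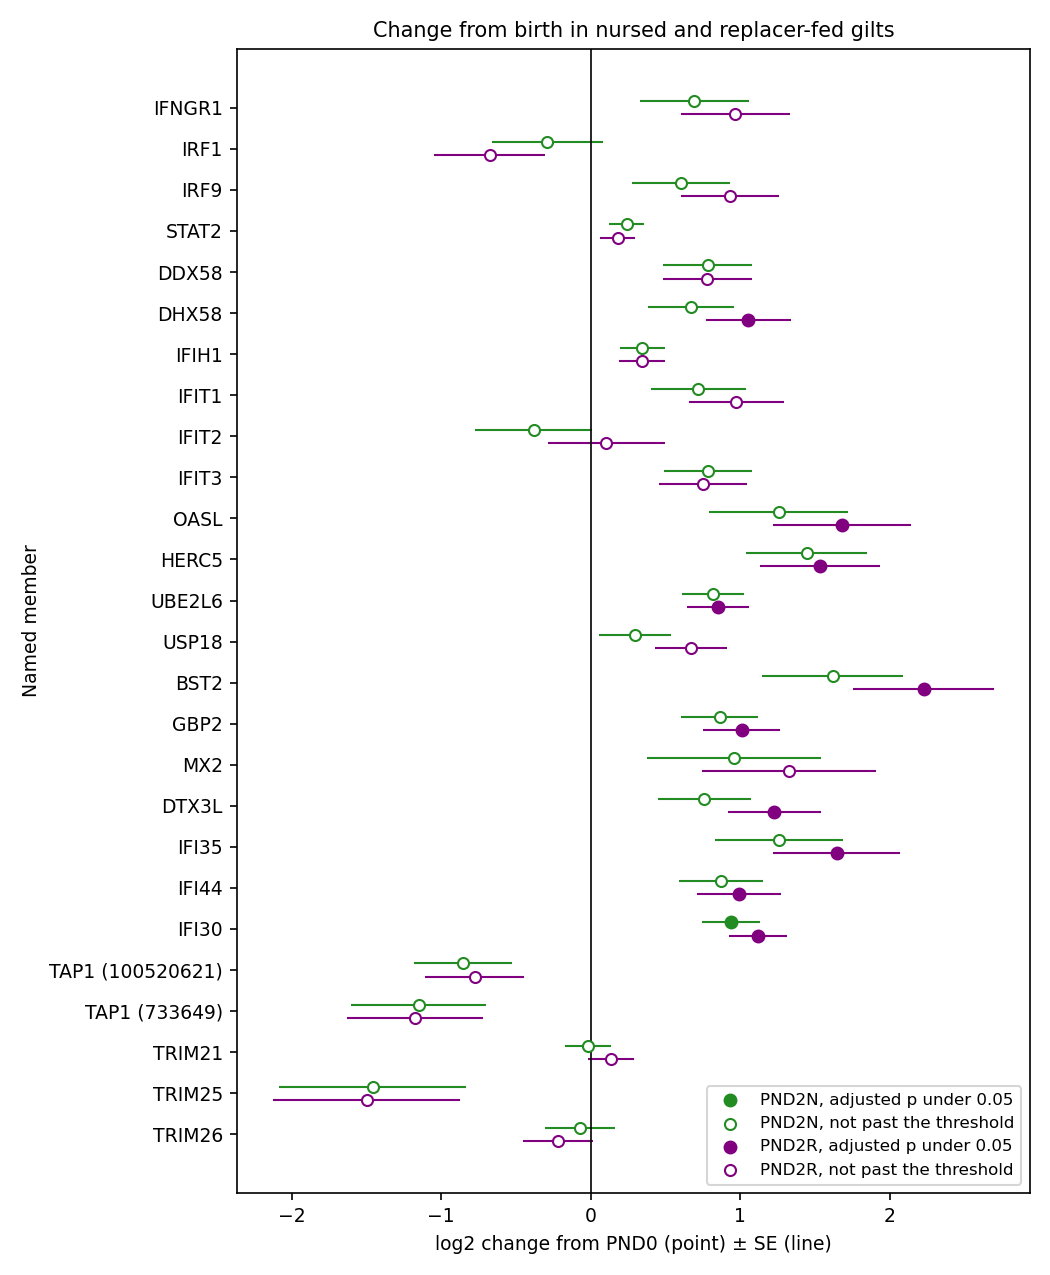
The horizontal axis is the log2 change from PND0 with its SE, for 26 named entries in rows; green stands for PND2N, purple for PND2R, and a filled point for an adjusted p under 0.05. IFI30 alone is filled in both colours, and the 2 TAP1 entries, TRIM25, IRF1 and TRIM26 lie left of 0 in both.

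The birth animals differed among themselves in this gene set. The median of the 52 entries, each taken relative to its mean over the 12 libraries, was -0.03 in PND0 1, 0.06 in PND0 2, -0.43 in PND0 3 and -0.67 in PND0 4. On day 2 it was -0.14, 0.10, 0.17 and 0.29 in PND2N and 0.19, 0.37, 0.01 and 0.19 in PND2R. PND0 1 and PND0 2 lay within the range of the day 2 animals, and PND0 3 and PND0 4 below it. In both PND0 3 and PND0 4, 37 of 52 entries (71.2%) were below PND0 1 and PND0 2, against 34.4% of all genes, and 6 (11.5%) were above both, against 33.6%. The 6 were IRF3, IFIT5, OASL, GBP1, GBP2 and IFI44L. This pair of libraries was singled out after their values were seen.

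**Figure D4:**
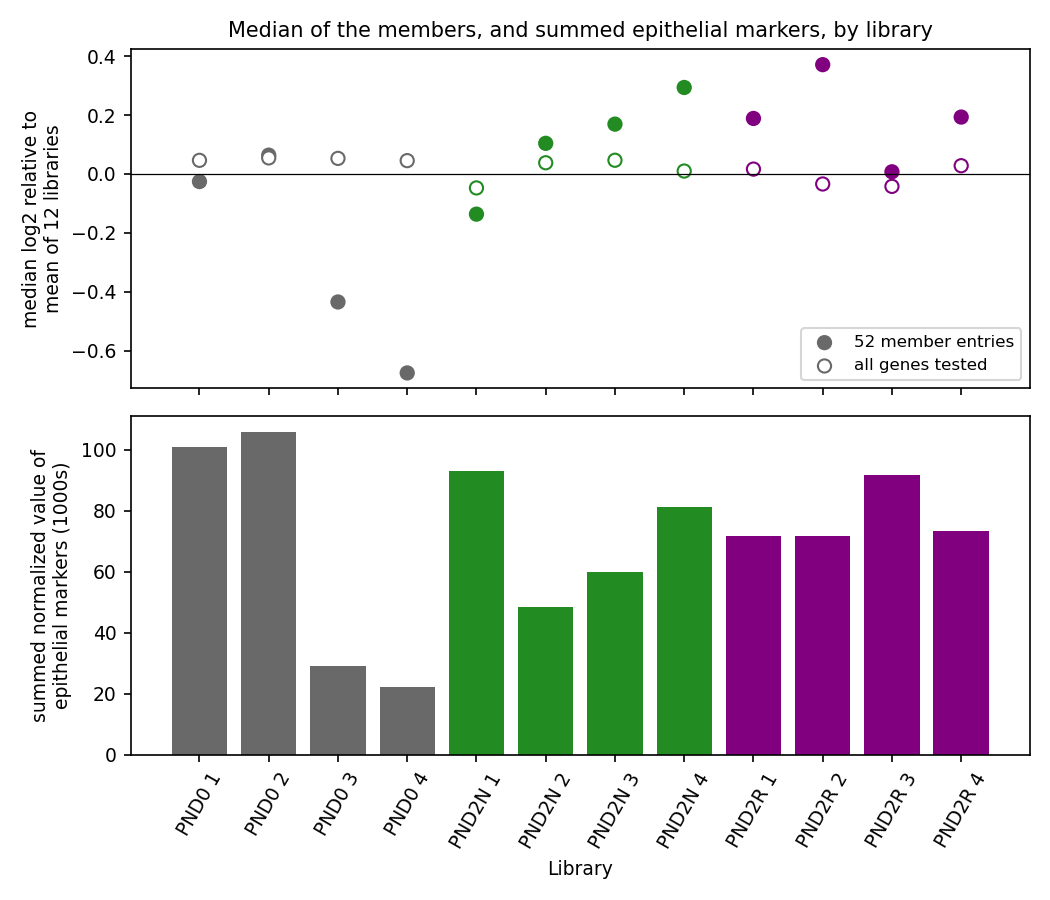
The upper panel gives for each library the median log2 level relative to the mean of the 12 libraries, filled for the 52 entries and open for all genes tested; the lower panel gives the summed normalized value of the epithelial markers as bars from 0. PND0 3 and PND0 4 have the lowest filled points of the upper panel and the lowest bars.

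In whole tissue fewer cells of a type and less RNA per cell cannot be told apart, so the marker lists are given beside these results. Of all genes tested, 9.57% rose and 8.49% fell in the day 2 mean, and 1.41% fell in PND2N and 7.31% in PND2R. Of 7 epithelial markers none passed in the day 2 mean, and their sum was 22410 to 105740 at birth, 48294 to 93072 in PND2N and 71747 to 91581 in PND2R. Of 9 macrophage markers 4 rose in the day 2 mean and none fell, and their sum was 4156 to 8007 at birth, 8644 to 10644 in PND2N and 7301 to 11007 in PND2R. Of 8 general leukocyte markers 1 rose, with sums of 3906 to 8275, 6907 to 8803 and 6891 to 7861 in the same order. For 10 markers of T and NK cells none passed, with sums of 212 to 524, 331 to 454 and 296 to 663. Of 7 neutrophil markers 1 rose, with sums of 389 to 475, 339 to 786 and 433 to 765. Of 7 endothelial markers 1 fell in the day 2 mean, 1 in PND2N and 2 in PND2R, and their sum was 10600 to 16602 at birth, 8713 to 13520 in PND2N and 7056 to 7848 in PND2R, wholly below birth in PND2R. For B cells (6 markers), red cells (5), stroma (7) and smooth muscle (7) none passed in the day 2 mean. The sums of the B cell markers were 876 to 1719, 788 to 1949 and 859 to 1722, those of the red cell markers 1061 to 2658, 2164 to 4016 and 687 to 2947, and those of the stromal markers 331720 to 424049, 272512 to 512902 and 233537 to 417684. Of 5 markers of plasmacytoid and dendritic cells with an entry, 3 were tested and none passed. The sums over all 5 were 99.2 to 168, 58.6 to 106 and 33.2 to 59.6, and BATF3 was at 1 in all libraries. The part of these markers in the changes of the interferon-stimulated genes was not tested.

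Other genes of the pathway were read from a list of 90, of which 62 had an entry and 60 were tested. In the day 2 mean 8 rose and 3 fell (background 9.57% higher and 8.49% lower), in PND2R 7 rose and 3 fell (7.7% and 7.31%), and in PND2N 1 rose and 0 fell (1.91% and 1.41%). The median day 2 change of the 60 was 0.08, against -0.05 over all genes, with 34 positive. That median was -0.06 without PND0 3 and PND0 4, and 0.17 without PND2N 1, PND2R 2 and PND2R 3. The calls were 4 in the day 2 mean, 3 in PND2R and 0 in PND2N without PND0 3 and PND0 4. Leaving out 1 library brought the 11 calls of the day 2 mean to 4 (PND0 3), 3 (PND0 4), 3 (PND2N 4), 5 (PND2R 2) and 6 (PND2R 3), and the 10 of PND2R to 4, 3, 6, 2 and 2 in the same order.

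The gene that rose in all of these was MB21D1, which encodes cGAS, the sensor of cytosolic DNA. MB21D1 was at 154, 206, 95.8 and 141 at birth, at 447, 312, 305 and 366 in PND2N and at 334, 407, 465 and 349 in PND2R. Every day 2 animal exceeded every birth animal. MB21D1 rose by 1.29 ± 0.26 in PND2N (adjusted p = 0.0284), by 1.41 ± 0.26 in PND2R (adjusted p = 0.0107) and by 1.35 ± 0.23 in the day 2 mean (2.55-fold, adjusted p = 0.0056). Its PND2N call was lost without any 1 of PND0 1, PND0 3, PND0 4, PND2N 2, PND2N 4 and PND2R 4, where no pathway gene passed in that comparison.

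Of the interferons themselves, IFNG was listed at 1 in all 12 libraries, as was the interferon gamma target IDO1. IFNK was near the lowest value, at 1.82, 2.45, 4.54 and 5.89 at birth, 2.42, 1.86, 1 and 3.35 in PND2N and 1 in all PND2R animals, and passed as lower in PND2R (-1.13 ± 0.34, adjusted p = 0.0446) on these small values. The other 3 interferon genes tested did not pass. IFNE, an interferon known from the epithelium of the reproductive tract, was at 121, 102, 55.9 and 36.5 at birth, at 176, 127, 75.9 and 188 in PND2N and at 106, 234, 154 and 126 in PND2R. Its groups overlapped, and its day 2 change was 0.98 ± 0.38 (adjusted p = 0.0863). IFNA1, at 1 to 24.5, and IFNL3, at 1 to 11.1, had day 2 changes of 0.22 and 0.33. Among 10 kinases, other STAT factors and inhibitors, TYK2, a JAK kinase of the type I receptor, fell by 1.72 ± 0.52 on the log2 scale in the day 2 mean (adjusted p = 0.0415). TYK2 was at 579, 604, 882 and 983 at birth, at 83.0, 401, 573 and 233 in PND2N and at 372, 115, 93.3 and 360 in PND2R, with the lowest values in PND2N 1, PND2R 2 and PND2R 3.

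Among 32 further interferon-induced genes, 7 rose and 2 fell in the day 2 mean (background 9.57% higher and 8.49% lower). GBP4, another guanylate-binding GTPase, rose by 1.39 ± 0.31 (2.62-fold, adjusted p = 0.0143), from 58.9 to 180 at birth to 163 to 338 in PND2N and 279 to 349 in PND2R. CD274, the checkpoint ligand PD-L1, rose by 1.06 ± 0.28 (adjusted p = 0.0247), with 17.1 to 30.5 at birth, 31.3 to 54.7 in PND2N and 48.2 to 64.4 in PND2R. PSME1 and PSME2, which form the proteasome activator PA28, rose by 0.73 ± 0.19 (adjusted p = 0.0261) and 0.98 ± 0.27 (adjusted p = 0.0282). NMI, which binds IFI35, rose by 0.75 ± 0.20 (adjusted p = 0.028), with 608 to 1314 at birth and 1337 to 1670 on day 2. APOBEC3B, a cytidine deaminase, rose by 0.75 ± 0.20 (adjusted p = 0.0269). CXCL11, a chemokine for T cells, rose by 1.63 ± 0.47 (adjusted p = 0.035), from 1 to 1.96 at birth to 1 to 13.0 on day 2. CXCL11 was at the lowest value of 1 in PND0 1, PND0 2, PND0 3 and PND2N 1, so its rise rests on small values. The 2 that fell were the ADP-ribosyltransferase PARP10, by 0.87 ± 0.17 (adjusted p = 0.00886), and NUB1, by 0.55 ± 0.15 (adjusted p = 0.0292).

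The 14 further copies complete the account. In the day 2 mean 3 of 14 rose and 0 fell (background 9.57% higher and 8.49% lower), and the median change was -0.10 against -0.05 over all genes. An IFITM3-like entry (chr2:162829271-162831060) was at 1.15, 16.7, 19.4 and 1 at birth, at 84.9, 74.5, 30.0 and 111 in PND2N and at 31.7, 132, 114 and 29.6 in PND2R, above all birth animals in every day 2 animal. It rose by 3.39 ± 0.74 in the day 2 mean (adjusted p = 0.0137). The sum over all 3 IFITM3 entries, in contrast, was 240 to 872 at birth, 484 to 784 in PND2N and 418 to 893 in PND2R, with overlap. An IFITM1-like entry on chromosome 1 rose by 2.25 ± 0.68 (adjusted p = 0.0415). It was at 28.8, 140, 146 and 13.9 at birth, and PND2N 3 (99.3) and PND2R 1 (142) lay within that range. The call held in 5 of 12 fits that left out 1 library. The sum over 5 IFITM1 entries was 970 to 2577 at birth, 976 to 1897 in PND2N and 1295 to 2278 in PND2R. A PARP14-like entry, at 129 to 437 at birth and 333 to 906 on day 2, rose by 1.17 ± 0.38 (adjusted p = 0.04997), and its change without PND0 3 and PND0 4 was 0.46 (adjusted p = 0.428). Its call held in 3 of 12 fits that left out 1 library.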

How the data were processed

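Total RNA of 12 uteri was made into messenger RNA libraries, per the labels' protocols; bcl2fastq and the build Sscrofa10.2 are named in the submitters' processing notes. How reads were aligned, counted, assigned to strands and normalized was not given in the sources used here. The authors deposited 1 table of signal, normalized linear values per gene with a lowest value of 1. Between 17.8% and 22.1% of a library's entries were at 1. Only 40.8% to 63.4% of low values fell on whole steps, so reads were not recovered, no count test was run, and no counting interval can be given. No 2 libraries held identical values; pairwise correlations were 0.935 or higher.

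Entries above 1 in at least 4 libraries were tested as log2(value + 1) in 1 limma fit of all 12 libraries (version 3.58.1; statmod 1.5.0 under R 4.3.3). Moderation was trended and robust, tests were two-sided, and p was adjusted by Benjamini-Hochberg over all 16862, with a threshold of 0.05. The fit was tested on simulated data. The labels describe separate gilts. Tables used pandas 2.3.3 and numpy 2.4.6, and figures matplotlib 3.10.9, under Python 3.11.15. Gene names came from the table, with older symbols matched through an NCBI gene table of Sscrofa11.1 used for names only.

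The members, lists and rules were chosen with earlier results of these data known. Given with every library's value were members past the threshold in any contrast, up to 3 per role with the lowest unadjusted p in the day 2 mean, and the 5 with the lowest unadjusted p in PND2N versus PND2R. Alternatives covered the pseudocount (0.1 and 5), the filter (none and 10), TMM and quantile scaling, the fit, library weights and libraries left out. No sequence is printed, since no promoter or protein table was used here.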

Additional observations from a re-analysis of the deposited data

Results flagged for a closer look

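In 4 of 78 groups of 4 animals checked over the 26 named entries, 1 animal lay far from the other 3 by Dixon's criterion, which sets the gap to the nearest animal against the group's range (ratio in parentheses); chance gives about 1 in 20. IRF9 was at 5990 in PND2R 2 against 3361 to 3668 in the others (0.883). HERC5 was at 685.0 in PND2N 4 against 343.1 to 365.5 (0.934). DDX58 was at 567.3 in PND2R 3 against 1058 to 1103 (0.915), and IFIH1 at 566.4 in PND0 3 against 653.1 to 660.1 (0.925).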

How the results depend on the processing

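No paired analysis was possible because the labels give no replicate numbers, litters or dates that link animals across groups. With 1 library left out at a time, members past the threshold numbered 0 to 2 in PND2N versus PND0 (main 1), 1 to 15 in PND2R versus PND0 (main 10), 4 to 14 in the day 2 mean (main 10) and 0 throughout in PND2N versus PND2R; the pathway genes numbered 0 to 3 (main 1), 2 to 15 (main 10), 3 to 14 (main 11) and 0. Chosen after seeing the data, leaving out PND2N 1, PND2R 2 and PND2R 3 together gave 2, 0 and 11 members and 4, 0 and 7 pathway genes in PND2N, PND2R and the day 2 mean against PND0. Leaving out PND0 3 and PND0 4 together gave 0, 2 and 2 members and 0, 3 and 4 pathway genes. In PND2N versus PND0, quantile normalization gave 2 members and 4 pathway genes, library quality weights 3 and 5, and a fit of only the groups compared 0 and 0. The pseudocount, filter, TMM and plain empirical Bayes alternatives left all counts within 1.5 times. No change of a member or further copy that passed reversed. For the pathway genes only counts were taken under the alternatives, so reversal was not checked. Of 16 named entries without a call in the day 2 mean, 3 reversed somewhere: leaving out 1 library gave -0.40 to 0.14 for IFIT2, -0.015 to 0.15 for TRIM21 and -0.28 to 0.0020 for TRIM26, leaving out PND2N 1, PND2R 2 and PND2R 3 gave 0.15 for IFIT2 and 0.0075 for TRIM26, and leaving out PND0 3 and PND0 4 gave -0.14 for TRIM21. Another 9 of the 16 passed under at least 1 alternative, DDX58, IFIT1 and IFIT3 among them under TMM and quantile normalization. In PND2N versus PND2R, leaving out 1 library gave -0.33 to 0.080 for HERC5 and -0.12 to 0.049 for UBE2L6, which was 0.062 with library quality weights and 0.19 without PND2N 1, PND2R 2 and PND2R 3. IFI30 passed in the day 2 mean under every alternative run, with adjusted p up to 0.0328. Fewer libraries also mean fewer animals in the fit, and the share of all genes passing in these fits is not given. Beyond that the cause was not tested. Depth per gene is unknown, since reads were not recovered.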
